A study of Mus musculus with 9 samples.

Results

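Transgelins, calponins, tropomyosins and caldesmon are proteins that sit on actin filaments and govern how myosin pulls on them. They were followed here in 10 of the 37074 gene names on the array, through 25 of its 56605 non-control probes: every probe whose gene name in the scanner files was Tagln, Tagln2, Cnn1, Cnn2, Cnn3, Tpm1, Tpm2, Tpm3, Tpm4 or Cald1. The genes were taken by name as families of actin-binding proteins, with earlier results of these data known. All 25 probes passed the filter on dim probes, which left 36817 probes in all.

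The cells were primary hepatic stellate cells of C57BL/6 mice aged 10 weeks, the retinoid-storing pericytes of the liver, obtained by collagenase perfusion and measured on 9 single-colour arrays. The si-cav group (3 arrays) was kept 7 days on hard plastic and then transfected overnight with 5 nM of an siRNA directed at Cav1, which encodes the caveolar coat protein caveolin-1. The nc group (3 arrays) had the same 7 days of culture and 5 nM of a negative control siRNA. The qhsc group (3 arrays) was labelled quiescent, with no treatment and no harvest or culture time given, so nc differs from it in transfection reagent and siRNA as well as in activation, and a difference in culture time cannot be told apart. All groups share strain, age and isolation, and no group holds a genetic deletion. Whether the samples of a group are separate mice or cultures is not given in the labels. The p-values therefore cover only the spread among these 9 samples, which may be technical.

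As background, tropomyosins are coiled-coil dimers that lie end to end along actin filaments, and their genes give many isoforms through alternative promoters, exons and 3′ ends. Calponins and caldesmon bind actin, and in smooth muscle they restrain the actin-activated ATPase of myosin. Transgelins carry a calponin-type domain and cross-link actin. Several of these genes are known as targets of serum response factor, which binds the CArG box, and they are widely used as markers of the contractile myofibroblast that a stellate cell becomes when it is activated.

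Levels are log2 processed signals minus the array's 75th percentile, so 0 is the 75th percentile of that array. Probes differ in how they bind, so a level is compared between arrays for 1 probe and never between probes. Different probes of a gene gave different answers, and 7 probes on which the results turn are shown here (5′ to 3′, coordinates on mm9 as the files give them). A probe is called by the first named variant among its listed records, and most list several, so a name does not mean that the probe reads that variant alone. The first pair are from Tpm1: a probe shared by Tpm1.1 and other records, with its target at chr9:66878844-66878903 on the minus strand, and a probe of Tpm1.5 at chr9:66880274-66880333.
Tpm1 A_66_P105457: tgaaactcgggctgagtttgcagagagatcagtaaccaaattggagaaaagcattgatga
Tpm1 A_55_P2078680: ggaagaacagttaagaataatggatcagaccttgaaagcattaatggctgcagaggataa
The Tpm2 probe belongs to Tpm2.3, at chr4:43532262-43532321 on the minus strand, and was the brighter Tpm2 probe.
Tpm2 A_55_P2121408: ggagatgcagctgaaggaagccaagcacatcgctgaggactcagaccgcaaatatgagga
The first Tpm3 probe lists Tpm3.12, but also the Tpm3.4 record and Ensembl transcripts (chr3:89892985-89893044, plus strand). The second lists Tpm3.13 with other records (chr3:89893733-89893942). This second probe spans 210 bases of the genome with 60 bases of probe, so it crosses an exon junction.
Tpm3 A_55_P2090205: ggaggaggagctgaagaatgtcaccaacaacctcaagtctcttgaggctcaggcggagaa
Tpm3 A_51_P462153: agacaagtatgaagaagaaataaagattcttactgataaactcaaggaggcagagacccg
The Cnn1 probe crosses a junction too (chr9:21909945-21910166, plus strand) and lists the same records as the other Cnn1 probe, and the Cald1 probe lies inside the gene at chr6:34703475-34703534 on the plus strand.
Cnn1 A_55_P2744265: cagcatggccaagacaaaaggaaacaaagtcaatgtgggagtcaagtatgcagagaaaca
Cald1 A_52_P599578: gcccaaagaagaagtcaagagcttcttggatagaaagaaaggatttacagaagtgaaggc

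RefSeq's promoter table (GRCm38.p6) held 11 promoters of 9 of the 10 genes, all but Tagln. In the 250 bases before the start, a CArG box was found on either strand in 1 of the 11, that of Cnn2, against 482 of all 32851 promoters (1.47%). It lies 56 bases before the start and is in capitals in the Cnn2 promoter, printed because it was the only member promoter with this motif (chr10:79988350-79988599 on GRCm38.p6, plus strand).
Cnn2 promoter: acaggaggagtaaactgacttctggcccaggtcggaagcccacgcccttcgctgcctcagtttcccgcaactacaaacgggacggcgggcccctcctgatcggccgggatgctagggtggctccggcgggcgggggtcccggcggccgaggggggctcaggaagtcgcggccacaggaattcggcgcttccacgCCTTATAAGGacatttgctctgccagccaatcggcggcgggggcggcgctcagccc
The TEAD motif GGAATG was found on either strand in 3 of the 11 promoters, those of Tagln2, Tpm1 and one of the 2 of Cald1, against 12.6% of all promoters. These are matches of letters in a fixed window and not sites of binding, and a window without a match says only that these letters are not in it.

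Before the results, 4 facts about the arrays bear on them. Arrays correlated, across kept probes, at 0.993 to 0.996 within si-cav, 0.991 to 0.994 within nc, 0.966 to 0.982 within qhsc, 0.989 to 0.995 between si-cav and nc, and 0.697 to 0.714 between nc and qhsc. Slide 2 held the 3 si-cav arrays with nc 2 and nc 3, and slide 1 held nc 1 with the 3 qhsc arrays, so si-cav and qhsc never shared a slide. Between 61.7 and 65.5% of spots were well above background on si-cav arrays, 63.5 to 70.3% on nc arrays and 53.6 to 60.2% on qhsc arrays, and no spot was saturated. Cav1 itself (A_55_P2126662) was at -2.87, -2.89 and -3.07 in si-cav, against -1.34, -1.12 and -1.09 in nc, a log2 difference of -1.76 (SE 0.24), so 29.4% of the control level remained. Its limma p was 4.7e-05 before adjustment and 0.17 after Benjamini-Hochberg adjustment over all kept probes, and the other Cav1 probe differed by -1.54 on the log2 scale.

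Marker lists of other cells moved between nc and qhsc as well. The log2 of the summed signal of 7 hepatocyte markers was -3.10 to -2.78 in si-cav, -2.62 to -2.26 in nc and 9.42 to 9.80 in qhsc; all 7 were lower in nc than in qhsc, with Apoa1, Ttr and Fabp1 above background on no nc array. For 6 Kupffer cell and macrophage markers the sum was 2.69 to 2.88 in si-cav, 2.96 to 3.16 in nc and 7.07 to 7.86 in qhsc, all 6 lower in nc, with Clec4f, Vsig4 and Timd4 above background on no nc array. Of 6 sinusoidal endothelial markers all were lower in nc, at -1.62 to -1.46 in si-cav, -1.64 to -1.39 in nc and 8.04 to 8.75 in qhsc. All 6 lymphocyte and neutrophil markers were lower too (-0.05 to 0.35, 0.24 to 0.43, and 4.19 to 5.05). Of 4 platelet markers 3 were lower and 1 higher (-1.29 to -1.0, -0.58 to -0.47, and 2.06 to 2.73), and of 4 cholangiocyte markers 1 was lower (-4.21 to -3.58, -3.63 to -3.47, and -2.03 to -1.23), in the same order of groups. The 4 mesothelial markers were all higher in nc (4.49 to 4.59 in si-cav, 4.74 to 4.79 in nc, -0.50 to 0.37 in qhsc). Of 5 smooth muscle markers, a list that holds Cnn1 itself, 3 were higher in nc (4.12 to 4.19, 4.04 to 4.25, and 2.09 to 2.88), with Lmod1 above background on no qhsc array. Of 5 striated muscle markers 1 was higher and 2 lower (-1.22 to -1.02, -0.88 to -0.77, and -1.40 to -0.68), and Ckm was above background on no nc or qhsc array. Of 11 markers of the quiescent stellate cell 2 were higher and 5 lower in nc (5.46 to 5.53, 5.54 to 5.58, and 4.68 to 6.15); all but Lrat, Rgs5 and Des were above background on all si-cav and nc arrays, and 10 of the 11 on all qhsc arrays. The part of these cells in the members' changes was not tested, and in bulk RNA fewer cells of a type and less RNA per cell cannot be told apart.

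In culture-activated cells, the nc group against qhsc, most probes of the 10 genes were higher. Of the 25 probes 18 were higher in nc, 2 lower and 5 not called (limma, Benjamini-Hochberg adjusted p under 0.05). Among all kept probes 43.0% were called higher and 25.0% lower, so a call by itself says little here. The 18 include 3 probes that were above background on no qhsc array and so passed the filter only through the groups where they are high. Among the 21 member probes above background on all 9 arrays, 14 were higher and 2 lower. Over all 24751 probes of that kind, 60.1% of calls were higher and the median log2 difference was 0.22. That percentage is a share of the probes called. It is to be set beside the 14 higher and 2 lower, not beside the 21 member probes. The median log2 difference of all 25 member probes was 1.62, beside 0.36 for all kept probes. That overall median depended on the background correction (normexp in place of the processed signal) and the scaling, at -0.14 with normexp and the 75th percentile, 0.16 with normexp and quantile normalization, and 0.51 with the array median as the scale. The share of calls that were higher was 63.3%, against 44.4% and 62.5% with these normexp settings. The nc and qhsc arrays did not overlap for 21 of the 25 member probes, against 69.8% of all kept probes. The largest rises were in Tagln, Cnn1, Tpm1, Tpm2 and 1 Cald1 probe, the smallest in Cnn3 and Tagln2, while Tpm3 had 4 uncalled probes and 1 that fell.

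**Figure D1:**
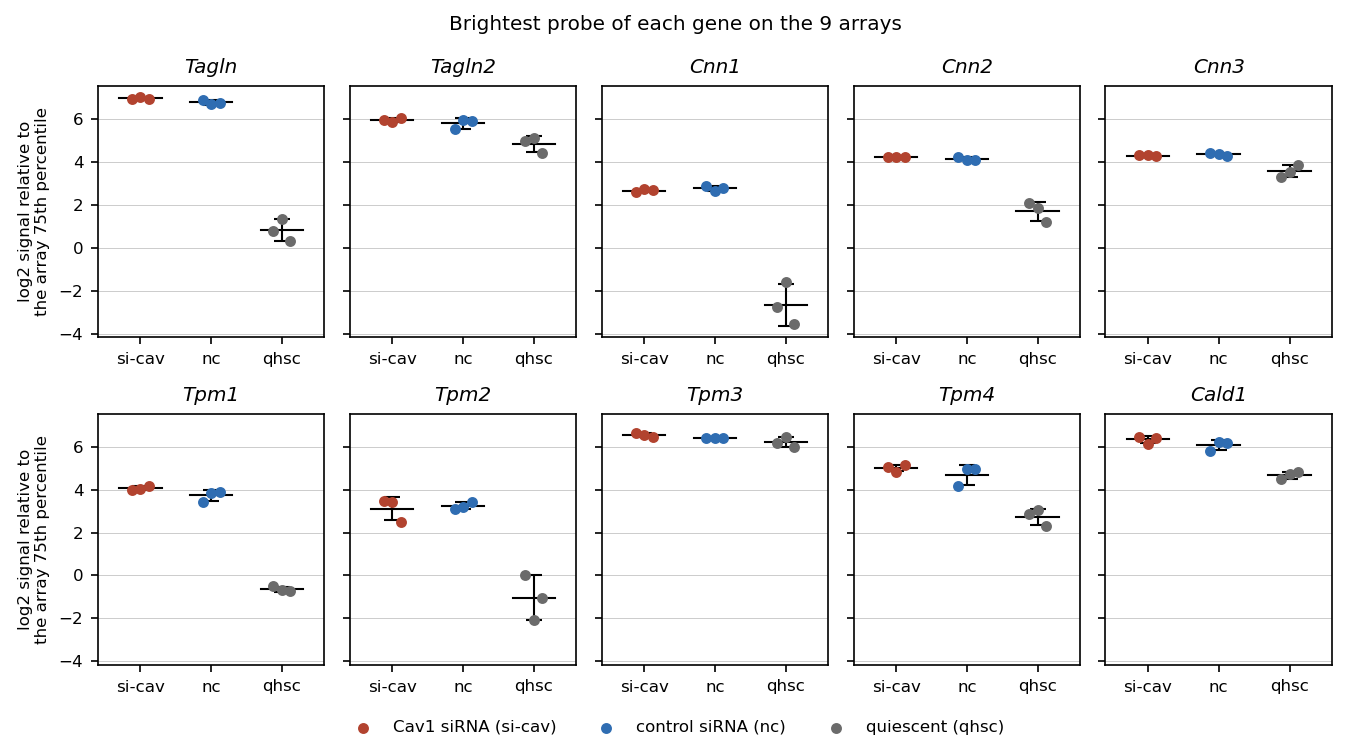
Level of the brightest probe of each of the 10 genes on the 9 arrays (y axis: log2 signal relative to the array's 75th percentile; x axis: si-cav, nc and qhsc; points: arrays; bars: mean and SD, n = 3). Tagln, Cnn1, Tpm1 and Tpm2 sit far above their qhsc points in both cultured groups, Tpm3 lies at 6.00 to 6.63 on all arrays, and single cultured arrays stand apart in Tpm2, where si-cav 3 is at 2.50, and in Tpm4, where nc 1 is at 4.15.

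Transgelins came first in size. Tagln, the actin cross-linker also known as SM22-alpha (chr9:45738097-45738156), was at 6.94, 7.01 and 6.95 in si-cav, 6.89, 6.69 and 6.75 in nc, and 0.80, 1.34 and 0.33 in qhsc. The cultured arrays all lay more than 5 log2 units above the highest quiescent array. The nc minus qhsc difference was 5.95 (SE 0.23), 61.9-fold with a 95% interval of 43.0 to 89.2 and an adjusted p of 4.6e-08 in limma. It exceeded the differences of 99.2% of kept probes.

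Tagln2, the broadly expressed family member, changed far less. Its brighter probe (chr1:174437450-174437506) read 5.96, 5.85 and 6.04 in si-cav, 5.52, 5.98 and 5.91 in nc, and 4.99, 5.12 and 4.40 in qhsc, a 1.95-fold rise in nc (log2 0.97, SE 0.21, limma adjusted p 0.0033). Its other probe (A_55_P2141884, chr1:174436738-174436797) read 2.54, 2.81 and 2.72 in si-cav, 2.60, 2.62 and 2.81 in nc, and 1.48, 1.32 and 0.38 in qhsc. That probe rose 3.07-fold in nc (log2 1.62, SE 0.27, limma adjusted p 5.5e-04). Both probes separated the groups, but with slide as a block the first fell short of the threshold (log2 0.68, limma adjusted p 0.082).

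Among the calponins the smooth muscle member changed most. Cnn1, basic calponin, which restrains myosin's ATPase, was at 2.58, 2.74 and 2.68 in si-cav, 2.90, 2.66 and 2.78 in nc, and -2.78, -1.62 and -3.57 in qhsc by its brighter probe (chr9:21913058-21913117). The rise in nc was 43.3-fold with an interval of 23.0 to 81.6 (log2 5.44, SE 0.40, limma adjusted p 2.7e-06), and the quiescent arrays spread by almost 2 log2 units. The junction probe printed above read -3.54, -3.12 and -2.81 in si-cav, -3.92, -3.20 and -3.21 in nc, and -7.68, -6.31 and -7.61 in qhsc, where it was not well above background on any array. It was at least 2.88-fold higher in nc (limma adjusted p 2.4e-05), a bound computed against the dimmest probe still above background on each qhsc array, as for the other bounds here. With normexp and the 75th percentile its difference was only 0.36 on the log2 scale, under that bound.

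Cnn2, the calponin of non-muscle and blood cells as well as smooth muscle, had 4.24, 4.21 and 4.23 in si-cav, 4.23, 4.10 and 4.11 in nc, and 2.07, 1.84 and 1.22 in qhsc (chr10:79457785-79457844). It was 5.43-fold higher in nc (log2 2.44, SE 0.21, limma adjusted p 7e-06). The lymphocyte, neutrophil and macrophage markers given above fell, and the part of such cells in the Cnn2 change was not tested. Cnn3, acidic calponin, read 4.31, 4.31 and 4.27 in si-cav, 4.43, 4.37 and 4.30 in nc, and 3.29, 3.55 and 3.87 in qhsc (chr3:121161024-121161083). Its rise in nc was 1.73-fold (log2 0.79, SE 0.16, limma adjusted p 0.0022), not far from the all-probe median of 0.36.

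The second probe named Cnn3 (A_55_P2136145) may not read the calponin 3 mRNA, and it is kept among the 25 probes and the 18 called higher. It lies on the opposite strand, 33854 bases away on the upstream side, and its only listed record is a cDNA clone. It rose 2.07-fold in nc (log2 1.05, SE 0.19, limma adjusted p 9.2e-04), was above background on 2 of 3 qhsc arrays, and its difference was -0.11 with normexp and the 75th percentile but 0.35 with normexp and quantile normalization (limma adjusted p 0.39 and 0.002).

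Tpm1, the tropomyosin gene expressed in muscle and in most other cells, gave different answers from different probes. The probe shared by Tpm1.1 and other records also lists the first records of the Tpm1.5 and Tpm1.10 probes below. Its signal is therefore not that of a variant separate from theirs. This shared probe read 4.01, 4.04 and 4.18 in si-cav, 3.42, 3.87 and 3.91 in nc, and -0.51, -0.68 and -0.73 in qhsc. It was 20.8-fold higher in nc, with an interval of 16.0 to 27.0 (log2 4.38, SE 0.17, limma adjusted p 4e-08). A probe from cDNA clones (A_65_P17289, chr9:66877029-66877088) rose 18.7-fold (log2 4.23, SE 0.17, limma adjusted p 5.6e-08). With normexp and the 75th percentile the clone probe differed by less, 2.83 against 4.13 for the shared probe, and with normexp and quantile normalization by 3.10 against 4.10.

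The probe of Tpm1.5 rose much less. It had -0.16, 0.00 and -0.05 in si-cav, -0.43, -0.21 and -0.13 in nc, and -1.09, -1.41 and -1.21 in qhsc, 1.97-fold higher in nc (log2 0.98, SE 0.15, limma adjusted p 3.3e-04). The probe of Tpm1.10 (A_55_P2187053, chr9:66872131-66872190) had 0.17, -0.13 and 0.05 in si-cav, -0.08, -0.26 and -0.03 in nc, and 0.16, -0.46 and -0.18 in qhsc. Its groups overlapped, and the difference of 0.04 (95% interval -0.38 to 0.45) was not called (limma adjusted p 0.86).

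Within Tpm1, then, the nc minus qhsc difference of the Tpm1.10 probe minus that of the shared probe was -4.34 log2 units, and that of the Tpm1.5 probe minus the shared probe was -3.40. In each case every array of one group lay apart from every array of the other in the ratio of the probes, which gives a two-sided exact permutation p of 0.1, the smallest that 3 against 3 arrays allow (0.17 after adjustment over 15 such pairs). The clone probe minus the shared probe was -0.15 (exact permutation p 0.7). Such ratios show unequal change of the probes' signals and do not say how many transcripts of each kind there are.

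**Figure D2:**
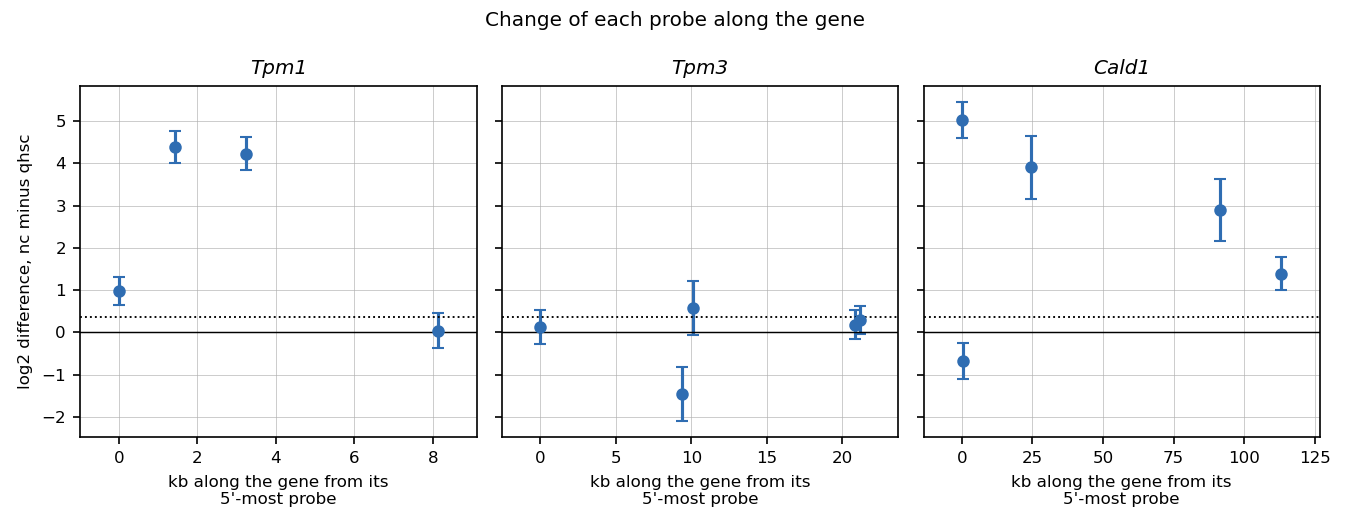
Log2 difference nc minus qhsc of each probe of Tpm1, Tpm3 and Cald1 (y axis, points with 95% limma intervals) against its position along the gene in kilobases from the gene's 5′-most probe (x axis); the dotted line is the median of all kept probes, 0.36. Tpm1 and Cald1 each hold probes above 4 and probes below 1, while Tpm3 has 4 probes between 0.12 and 0.57 and A_55_P2090205 at -1.46.

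Tpm2, which encodes beta-tropomyosin of muscle and fibroblasts, rose by both of its probes. The Tpm2.3 probe read 3.46, 3.41 and 2.50 in si-cav, 3.12, 3.19 and 3.43 in nc, and 0.02, -2.09 and -1.05 in qhsc, 19.5-fold higher in nc with a wide interval of 9.20 to 41.4 (log2 4.29, SE 0.48, limma adjusted p 4.3e-05). The quiescent arrays spread over more than 2 log2 units, and si-cav 3 lay below all 3 nc arrays. The Tpm2.2 probe (A_51_P357013, chr4:43527892-43527951) read -2.10, -2.15 and -2.01 in si-cav, -1.65, -2.01 and -2.03 in nc, and -6.33, -6.39 and -7.72 in qhsc. It was not well above background on any qhsc array, and it was at least 8.40-fold higher in nc (limma adjusted p 1.6e-06), though its log2 difference was 1.31, under that bound, with normexp and the 75th percentile.

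Tpm3, a cytoskeletal tropomyosin gene that also gives a slow-muscle isoform, was the only member whose brightest probe was not called. That Tpm3.1 probe (A_55_P2090209, chr3:89904428-89904487) read 6.63, 6.55 and 6.45 in si-cav, 6.42, 6.39 and 6.39 in nc, and 6.20, 6.45 and 6.00 in qhsc. Its difference of 0.18 (95% interval -0.16 to 0.52) had a limma adjusted p of 0.30. It was called with normexp and the 75th percentile (0.36, limma adjusted p 0.03) and was -0.05 with normexp and quantile normalization.

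The other Tpm3.1 probe (A_55_P2507335) differed by 0.29 (limma adjusted p 0.11), and its nc arrays, at 4.13 to 4.16, all lay above its qhsc arrays, at 3.60 to 4.03. It too was called with normexp and the 75th percentile (0.50, limma adjusted p 0.014). The Tpm3.4 probe (A_55_P2933119) differed by 0.12 and the Tpm3.13 junction probe by 0.57 (limma adjusted p 0.57 and 0.097), with overlapping groups. Intervals on these 3 ran between -0.28 and 1.21, so a rise of up to 2.31-fold in the junction probe lies within its interval.

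The probe that lists both Tpm3.12, known as the slow skeletal muscle isoform, and Tpm3.4 went the other way, and it does not tell these variants apart. It read -2.95, -2.78 and -2.79 in si-cav, -2.90, -2.54 and -2.63 in nc, and -0.86, -0.90 and -1.94 in qhsc, so every cultured array lay below every quiescent one. It was 2.75-fold lower in nc (log2 -1.46, SE 0.28, limma adjusted p 0.0013), and it was -1.67 with a limma adjusted p of 0.065 when only nc 1, on the same slide as qhsc, was used. Its difference minus that of the brightest Tpm3.1 probe was -1.64 (exact permutation p 0.1, the smallest possible, and 0.17 adjusted). In the same samples 2 of the 5 striated muscle markers fell and 1 rose, and their summed signal overlapped between nc and qhsc. The part of such cells was not tested.

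Tpm4, a cytoskeletal tropomyosin abundant in platelets and fibroblasts, read 5.07, 4.84 and 5.14 in si-cav, 4.15, 4.98 and 4.95 in nc, and 2.87, 3.04 and 2.32 in qhsc (A_55_P2760896, chr8:74676901-74676958). The rise in nc was 3.87-fold (log2 1.95, SE 0.27, limma adjusted p 1.7e-04). Of the 4 platelet markers 3 fell and 1 rose, and the part of such cells was not tested. The Tpm4 probe shares at least 20 bases with the probe of a predicted Tpm4 pseudogene, LOC102633627. That probe differed by 2.33 (SE 0.36, limma adjusted p 3.9e-04), so the signals of the pair cannot be told apart. The array nc 1 minus the mean of nc 2 and nc 3 was -0.81, and the difference from nc 1 alone was 1.41 (limma adjusted p 0.061).

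Cald1, caldesmon, which binds actin, tropomyosin and myosin and is made in smooth muscle and non-muscle forms, had 5 probes that spanned 1.39 up to 5.03 among those that rose. The brightest (A_66_P105683, chr6:34725339-34725398) read 6.46, 6.15 and 6.43 in si-cav, 5.81, 6.22 and 6.19 in nc, and 4.50, 4.71 and 4.83 in qhsc, 2.62-fold higher in nc (log2 1.39, SE 0.17, limma adjusted p 8.7e-05). A probe whose ends lie far apart (A_52_P513153, chr6:34612179-34635984, 23806 bases of genome) read 2.65, 2.61 and 2.64 in si-cav, 2.47, 2.51 and 2.47 in nc, and -2.51, -2.19 and -2.94 in qhsc. That junction probe rose 32.6-fold, with an interval of 24.3 to 43.7 (log2 5.03, SE 0.19, limma adjusted p 3.5e-08).

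The probe inside the gene printed above had 1.48, 1.15 and 1.16 in si-cav, 0.01, 1.20 and 1.30 in nc, and -1.80, -2.14 and -2.23 in qhsc, a 7.42-fold rise (log2 2.89, SE 0.32, limma adjusted p 4.3e-05). Here nc 1 minus the mean of nc 2 and nc 3 was -1.24, lower than for all but 0.975% of kept probes, and the rise was 2.06 on the log2 scale with slide as a block (limma adjusted p 2.5e-04). A further probe (A_66_P109065, chr6:34636676-34636735) was not well above background on any qhsc array and was at least 3.05-fold higher in nc (limma adjusted p 5.9e-06), again with a log2 difference under that bound, 0.40, with normexp and the 75th percentile.

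One Cald1 probe fell. A_55_P2620849 (chr6:34612629-34612688) lies within the stretch that the junction probe skips, and its records are a single Ensembl transcript and a cluster of expressed tags. It read 0.44, 0.13 and 0.26 in si-cav, 0.59, -0.03 and 0.54 in nc, and 1.1, 1.03 and 0.98 in qhsc, 1.59-fold lower in nc (log2 -0.67, SE 0.19, limma adjusted p 0.011). The groups did not overlap, but the call did not hold with the array median as the scale (-0.53, limma adjusted p 0.055) or with slide as a block (-0.45, limma adjusted p 0.18). Relative to the brightest Cald1 probe, the difference was 3.64 for the junction probe and -2.06 for this probe, each with the smallest possible exact permutation p of 0.1 (0.17 adjusted).

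**Figure D3:**
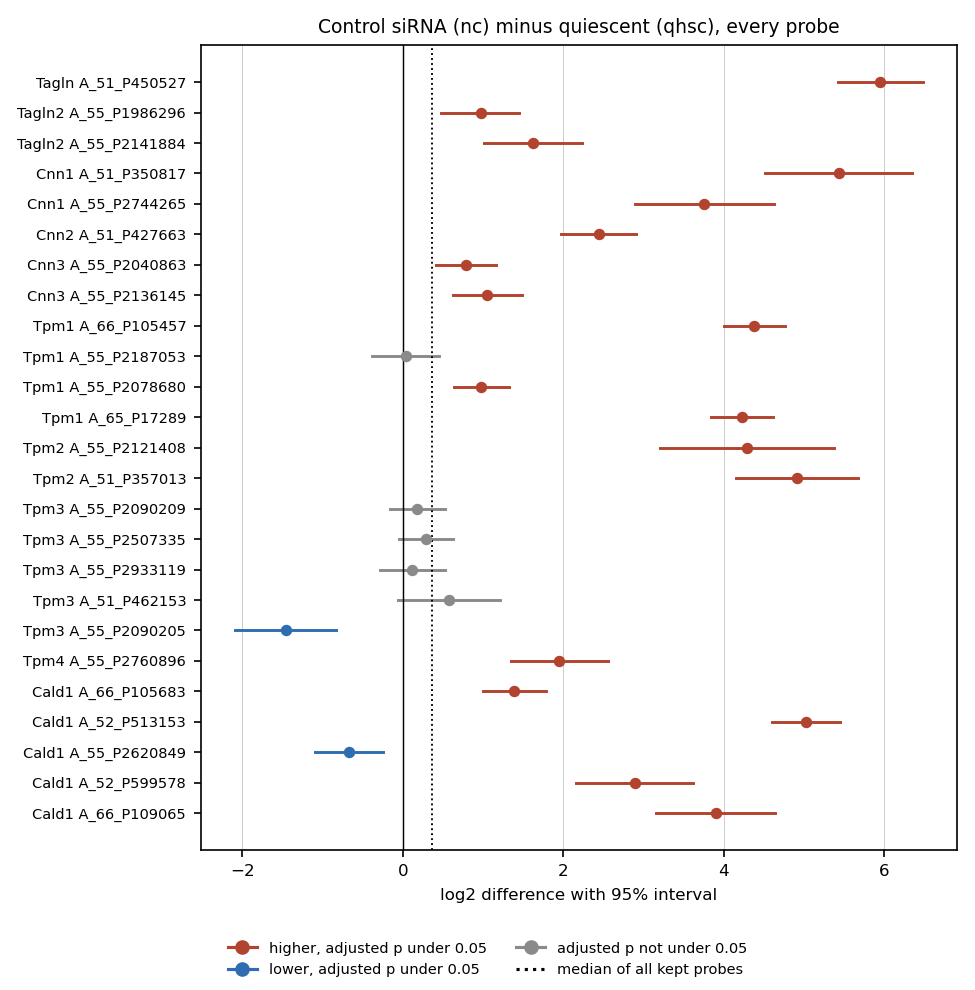
Log2 difference nc minus qhsc of all 25 probes with 95% limma intervals (x axis), 1 row a probe in gene order; the dotted line is the median of all kept probes, 0.36. The 18 probes called higher run from 0.79 to 5.95. The 2 called lower are A_55_P2090205 of Tpm3 at -1.46 and A_55_P2620849 of Cald1 at -0.67. The fitted values of the 3 probes below background in qhsc are not bounds.

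Some member differences stayed close in size when only nc 1 was set against the 3 qhsc arrays on its slide. They were 6.06 for Tagln (5.95 with all 9 arrays), 5.56 for the brighter Cnn1 probe (5.44) and 2.53 for Cnn2 (2.44). The Tpm2.3 probe gave 4.16 (4.29) and the shared Tpm1 probe 4.07 (4.38). All of these probes were above background on all 9 arrays. Others moved more, such as Tpm4 at 1.41 (1.95) and Cald1 A_52_P599578 at 2.06 (2.89). With 1 nc array that fit assumes that nc 1 varies like the others, so its calls are not counted here.

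After the Cav1 siRNA, no probe of the 10 genes was called against the control siRNA. Of the 25 probes 0 had an adjusted p under 0.05 in limma, as for 0% of all kept probes, and 0 had an unadjusted p under 0.05, where 4.65% of all kept probes did. The differences ran from -0.19 to 0.43 with a median of 0.15, beside -0.02 for all kept probes, and 18 were positive and 7 negative. The 95% intervals extended 0.33 to 1.08 log2 units to each side, so the precision differed between probes. No member probe was called in any of 21 other settings of the processing.

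Tagln was higher in every si-cav array than in any nc array, at 6.94 to 7.01 against 6.69 to 6.89, by 0.19 (95% interval -0.34 to 0.72, limma p 0.44). The smallest p of the members was that of the shared Tpm1 probe, whose si-cav arrays, at 4.01 to 4.18, also lay above its nc arrays, at 3.42 to 3.91. It differed by 0.34 (95% interval -0.04 to 0.72, limma p 0.073, adjusted p 0.9999). Groups did not overlap for 5 of the 25 probes, against 22.4% of all kept probes.

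Cnn1 differed by -0.11 (95% interval -1.03 to 0.80), Cnn2 by 0.08 (-0.40 to 0.55) and Cnn3 by -0.07 (-0.44 to 0.31). For Cnn3 a change by a factor of 2 in either direction lay outside the interval, while for Cnn1 a fall of that size did not. Tpm2 differed by -0.12 (-1.21 to 0.96), and by 0.19 without si-cav 3, its low array. Tpm3.1 differed by 0.15 (-0.19 to 0.48), Tagln2 by 0.14 (-0.34 to 0.63), Tpm4 by 0.32 (-0.28 to 0.93) and the brightest Cald1 probe by 0.27 (-0.12 to 0.66). These misses of the threshold do not show that the groups were alike.

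The largest estimate, 0.43 for the Cald1 probe A_52_P599578 (limma p 0.22), rests on nc 1, and it was 0.01 among the arrays of slide 2. The Tpm4 difference of 0.32 was likewise 0.05 within slide 2. Across the members nc 1 was the lowest nc array for 12 probes and the highest for 9.

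**Figure D4:**
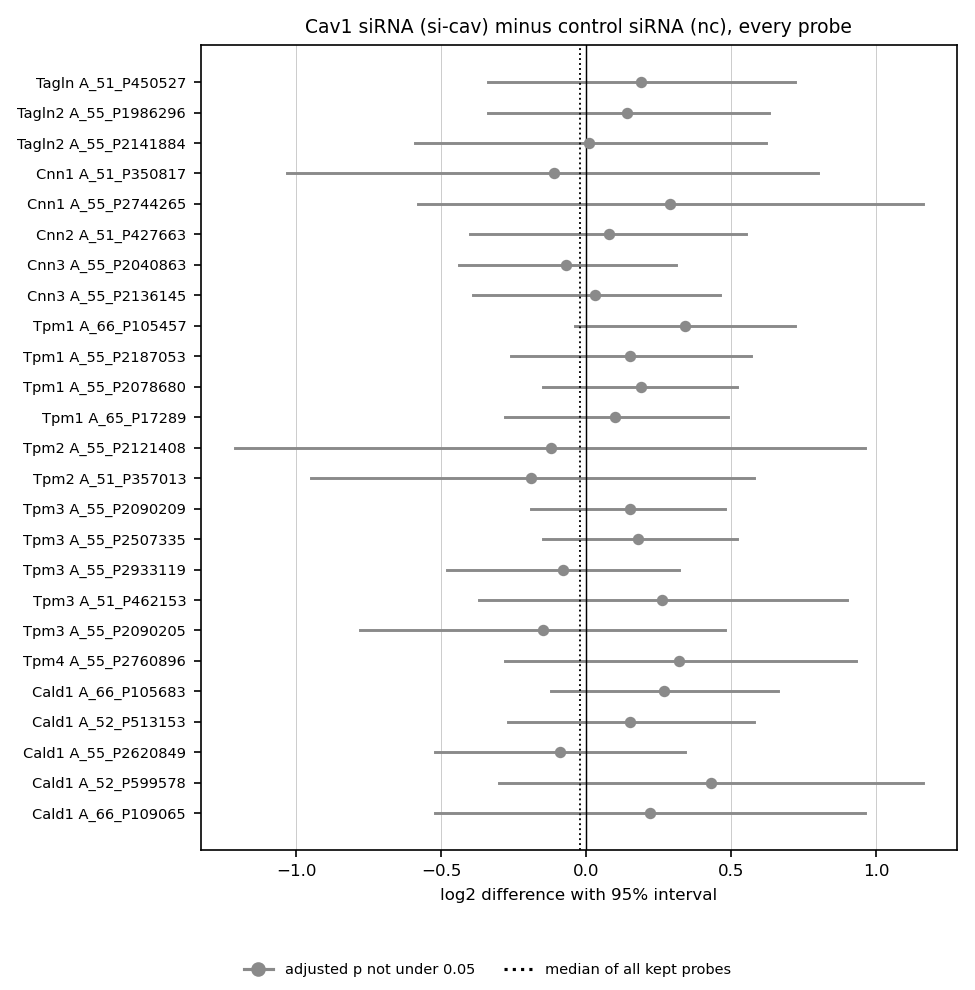
Log2 difference si-cav minus nc of all 25 probes with 95% limma intervals (x axis), 1 row a probe in gene order; the dotted line is the median of all kept probes, -0.02. Every interval crosses 0, and the estimates run from -0.19 for the Tpm2.2 probe to 0.43 for A_52_P599578 of Cald1.

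Against qhsc, the si-cav cells showed 20 of the 25 probes higher, 2 lower and 3 not called in limma, with 41.8% of all kept probes higher and 25.9% lower. Here too the 20 include the 3 probes above background on no qhsc array, which passed the filter only through the cultured groups. The members' median was 1.66, beside 0.32 for all kept probes. This comparison shares its qhsc arrays with the nc comparison, so the values are given side by side: 6.14 for Tagln (5.95 in nc), 5.32 for Cnn1 (5.44), 4.72 for the shared Tpm1 probe (4.38) and 4.16 for Tpm2.3 (4.29). The Tpm3 probe A_55_P2090205, which lists both Tpm3.12 and Tpm3.4, was at -1.61 (-1.46 in nc). The si-cav and qhsc arrays sat on different slides, so no comparison within a slide could be made. With slide as a block, for which the nc arrays join the slides, 15 of the 25 probes were higher and 1 lower. Over all 36817 kept probes that fit called 9118 higher and 6217 lower.

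Genes that act with these proteins went several ways in culture. Of 4 genes for serum response factor and its cofactors, 3 were measured and all rose in nc over qhsc: Srf by 0.87, its actin-sensing cofactor Mrtfa by 3.09 and Mrtfb by 1.15 on the log2 scale (SE 0.15 to 0.17, limma adjusted p 6.7e-04 or less), while Myocd did not pass the filter. Of 9 measured smooth muscle genes 4 rose and 2 fell, with a median of 0.39. Acta2, smooth muscle alpha-actin, rose by 8.37 and the actin-binding Nexn by 2.74, while Pgm5, a phosphoglucomutase relative of cell adhesions, fell by 3.46.

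Of 12 genes for myosin light chains and their phosphorylation 7 rose and 3 fell, with a median of 0.91. Myl9, a smooth muscle regulatory light chain, rose by 3.96, the kinase Rock2 by 2.01 and the myosin phosphatase subunit Ppp1r12b by 1.86. The largest difference of the list, named after its value was seen, was a fall: Ppp1r14a, an inhibitor of myosin phosphatase, was above background on no nc array and was at least 36.5-fold lower (limma adjusted p 1.5e-05). All 8 troponin subunits, the striated muscle partners of tropomyosin, were called: 4 rose and 4 fell, with a median of 0.21. Tnni2, Tnnt1 and Tnnc2, all of fast or slow skeletal muscle, had differences of -4.23, -4.07 and -2.38, and Tnnt3 fell by 0.80. The 4 that rose are named after their values were seen. The heart uses Tnnt2 (4.33), Tnnc1 (2.73) and Tnni3 (1.22), and Tnni1 (1.90) is of slow skeletal muscle. Tnnt2 was above background on 1 of 3 qhsc arrays, and Tnnc1 and Tnni3 each on 2 of 3. Of the 7 tropomodulins and leiomodins, which cap or nucleate filaments bearing tropomyosin, 4 were measured, with 1 higher, 1 lower and a median of -0.26. Tmod3 fell by 0.68 on the log2 scale, and Tmod2, above background on no qhsc array, was at least 1.34-fold higher. These lists were read against 43.0% of probes higher and 25.0% lower, and no gene of any of them was called between si-cav and nc.

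Some other genes traced the members' patterns over the 9 arrays most closely, by the Euclidean distance between log2 signals centred on their own mean (13104 candidate genes). For Tagln they were Loxl1, Phlda3 and Fstl1 (distances 0.31, 0.41 and 0.42), and for Cnn1 they were Daam2, Ckap2 and Fbn1 (0.30, 0.41 and 0.43). Tpm1's were Rab11fip5, Acsl3 and Epb41l1 (0.37, 0.38 and 0.50). Tpm2 had no near neighbour of that closeness, the nearest being Igf2bp3, Vldlr and Nme4 (1.19, 1.24 and 1.24).

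Cald1 was nearest to Rest, Il11ra1 and Zzz3 (0.22, 0.26 and 0.26), Tpm4 to Dlgap4, Tceal9 and Mydgf (0.39, 0.46 and 0.47), and Cnn2 to Gm38457, Nt5c3b and H2ac4 (0.33, 0.34 and 0.34). Among the flatter members, Cnn3 was nearest to Hmgxb3, Cnot4 and Cbwd1 (0.15, 0.16 and 0.17), Tagln2 to 1810055G02Rik, Suco and Tnfrsf1a (0.22, 0.24 and 0.29), and Tpm3 to Cd164, Mef2d and Leprot (0.20, 0.23 and 0.23). Small distances are easier to reach for genes that vary little, and the 9 arrays fall into cultured and quiescent ones, which such genes share.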

How the data were processed

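Cy3-labelled cRNA made from 0.2 µg of RNA was hybridised to single-colour arrays, and Agilent Feature Extraction 10.7.1.1 extracted the scans, per the submitters' processing notes. The deposited values are processed signals, a spot intensity on a linear scale per the file headers, background-subtracted but not scaled to other arrays. The authors' deposited series table holds the same intensity averaged over spots (within 1% for 99.95% of values) and served as an alternative.

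From these, log2 intensities minus each array's 75th percentile were computed, spots of a probe were averaged without outliers, and probes were filtered: in 1 group or more, every array had to show a share of 0.5 or more of the spots well above background (36817 of 56605; 68 with only outlier spots on an array left out). limma 3.58.1 in R 4.3.3 (lmFit, eBayes, two-sided, all 9 arrays, a mean for each group) tested every kept probe, with Benjamini-Hochberg adjustment over all of them and calls at an adjusted p under 0.05. The fit was tested on simulated data. The number of arrays limits the precision. The brightest probe over the 9 arrays stood for a gene where 1 value is given. Named partner genes were all of a list of 4 or fewer, otherwise the 3 with the largest absolute difference among those called and above background on all arrays of both groups. Protein sequences and exon annotation on mm9 were not used here. Members and lists were chosen with earlier results of these data known. Tables were handled in data.table (version 1.17.8) and figures drawn with matplotlib 3.10.9 in Python 3.11.15. Alternatives covered background correction, scaling, filter, probe choice, slide, replicate number, variance model, array weights and each array left out.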

Additional observations from a re-analysis of the deposited data

How the results depend on the processing

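Precision for dim probes is limited by background: with normexp and the 75th percentile the nc minus qhsc difference was 0.36 for the Cnn1 junction probe, 0.40 for Cald1 A_66_P109065 and 1.31 for the Tpm2.2 probe, each still called. The cause was not tested for any change below. No member probe was called for si-cav minus nc in any setting. Over all kept probes that comparison gave 15 calls with normexp and the 75th percentile, 8 with normexp and quantile normalization, 8 among probes above background on all 9 arrays, 5 with the 2 groups alone, 5 with trend and robust eBayes, and 948 with array weights (174 higher and 774 lower); leaving out 1 array gave 0 to 3, with 3 without qhsc 1 and 1 without si-cav 1. For nc minus qhsc, 9 of 10 genes were called with the brightest probe or the mean of probes, and 16328 or 16489 of 23965 genes over all, where genes and not probes were counted; within slide 1 there were 11 member calls (none of 25 lower) and 11176 over all. For si-cav minus qhsc the counts by gene were 9 and 9, with 16210 and 16317 over all, and with slide as a block 15335 over all; a fit within slide was not possible. Member calls ran from 20 to 21 for nc minus qhsc when 1 array was left out. Signs turned for Tpm3 nc minus qhsc (-0.05 with normexp and quantile normalization, -0.06 with the mean of probes), and for si-cav minus nc of Tagln2 (-0.04 with normexp and quantile normalization), Cnn3 (0.05 with the array median), Cnn1 (0.09 with the mean of probes) and Tpm2 (-0.29 to 0.19 with 1 array left out, the highest without si-cav 3), none of them called. Within slide 1, Tagln2 (0.68), Cnn3 (0.85), Tpm4 (1.41) and Cald1 (1.13) missed the threshold for nc minus qhsc. Whether equal replicate numbers mark paired samples is not known. Deviations from the group means correlated at -0.098 to 0.155 between arrays of equal number, which does not settle it. With the replicate number as a block, 20 member probes were called for nc minus qhsc, 22 for si-cav minus qhsc and 0 for si-cav minus nc. These are the counts of the main fit too. In that main fit 43.0% of all kept probes were higher and 25.0% lower for nc minus qhsc. For si-cav minus qhsc the shares were 41.8% and 25.9%, so such counts of calls say little by themselves.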
